A study of Mus musculus with 2 samples.

Results

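The Ikaros zinc finger family comprises 5 genes, Ikzf1 (Ikaros), Ikzf2 (Helios), Ikzf3 (Aiolos), Ikzf4 (Eos) and Ikzf5 (Pegasus), and these were described here with their 34 annotated transcripts. The genes were chosen by their names and matched by GENCODE M21 gene identifier, so that 5 of the 55536 annotated genes in the tables were members, and all 5 were found. RNA-seq was done on the polyA plus RNA of regulatory T cells, a CD4 lineage that holds immune responses in check. The cells came from 1 adult male mouse aged 4 months of the strain Foxp3CreERT2 x Rosa26YFP, in which the Foxp3 locus drives a tamoxifen-dependent Cre recombinase and the Rosa26 locus carries a yellow fluorescent reporter. The 2 libraries were technical replicates of this 1 biological sample and formed 1 group with no control group. The labels trace the cells to bone marrow haematopoietic origin, and name no tissue of isolation, sort or treatment with tamoxifen.

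Members of the family bind DNA through a cluster of C2H2 zinc fingers near the amino terminus, and pair with themselves and with one another through a second cluster at the carboxyl terminus. They recruit chromatin remodelling and corepressor complexes, and shorter isoforms that keep the pairing fingers but lose DNA-binding fingers can interfere with the full-length proteins. Ikaros is the founding member and is needed for lymphocyte development, Helios marks and stabilises many regulatory T cells, Eos is a corepressor partner of Foxp3, Aiolos acts in B cells and activated T cells, and Pegasus is a more distant and widely expressed relative.

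The label of the sample was checked against marker genes. All 6 regulatory T cell markers and all 6 T cell markers were expressed, meaning that they reached 1 TPM (a level scaled for transcript length and library total, so that genes can be compared) in both libraries, and Foxp3 stood at 43.16 TPM in library 1 and 36.22 TPM in library 2. None of 6 myeloid and none of 5 progenitor markers was expressed. CD8 T and NK cell markers had 4 of 6 expressed, with Gzmb highest at 25.5 ± 0.54 TPM, Cd8b1 next at 12.6 ± 2.51 TPM and Cd8a at 2.00 ± 0.25 TPM (SD, n = 2 technical libraries, as for every ± below). B cell markers had 1 of 6 expressed (Cd79b, at 33.2 ± 0.10 TPM). Plasma cell markers had 2 of 5, Xbp1 at 32.6 ± 0.955 TPM and Prdm1 at 10.9 ± 1.94 TPM. Dendritic markers had 1 of 5, Zbtb46 at 2.94 ± 0.35 TPM, with Itgax at 0 counts in both libraries. Red cell markers had 1 of 5, Gata1 at 33.6 ± 1.74 TPM, with Slc4a1 at 0 counts in both. Summed over each list, the CD8 T and NK cell markers held 40.4 TPM in library 1 and 44.3 TPM in library 2. The B cell markers held 35.4 and 35.5 TPM, the plasma cell markers 42.0 and 45.9 TPM, and the red cell markers 36.4 and 33.5 TPM. The dendritic markers held 3.22 and 4.33 TPM. Members of the family are also expressed in CD8 T, NK and B cells, and the part of other cells in the members' levels was not tested. In bulk RNA, fewer cells of a type and less RNA per cell cannot be told apart. Library 1 held 15821875 estimated counts on genes and library 2 held 16153671. The spread between libraries is technical and says nothing of the spread between animals, so the values below describe this sample, with no test.

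The coding sequence of the second zinc finger is shown for all members because the residues it encodes are the same in 4 members and largely different in the fifth. In human cells, the second finger of Ikaros and of Aiolos is the part that cereblon grasps in the presence of thalidomide analogs. The letters are those of the GENCODE M21 transcripts on GRCm38, read on the coding strand, and capitals mark the codons of the cysteine pair and the histidine pair that hold the zinc ion. The fingers lie at chr11:11754024-11754086 (plus strand) in Ikzf1, chr1:69570581-69570643 (minus) in Ikzf2, chr11:98488940-98489002 (minus) in Ikzf3, chr10:128640229-128640291 (minus) in Ikzf4 and chr7:131392501-131392563 (minus) in Ikzf5.
Ikzf1 finger 2: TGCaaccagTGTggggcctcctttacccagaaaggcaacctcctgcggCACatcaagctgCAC
Ikzf2 finger 2: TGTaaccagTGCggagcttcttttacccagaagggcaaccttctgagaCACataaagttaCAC
Ikzf3 finger 2: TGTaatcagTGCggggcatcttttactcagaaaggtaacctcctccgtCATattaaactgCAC
Ikzf4 finger 2: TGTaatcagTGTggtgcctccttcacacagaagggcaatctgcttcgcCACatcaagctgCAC
Ikzf5 finger 2: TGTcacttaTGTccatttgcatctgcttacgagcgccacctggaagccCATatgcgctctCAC

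All 6 pairs among Ikzf1, Ikzf2, Ikzf3 and Ikzf4 encoded the same 21 of 21 residues in this finger, although their bases were the same at only 48 to 53 of 63 positions. Ikzf5 shared 5 of 21 residues with each of the other members, 4 of them the paired cysteines and histidines, and 26 to 30 of 63 bases. The pattern of 2 cysteines and 2 histidines was found 6 times in the proteins of Ikzf1-203, Ikzf2-207 and Ikzf4-201, as 4 fingers in the first cluster and 2 in the second. It was found 5 times in those of Ikzf3-201 and Ikzf5-201, as 3 and 2. Without the last histidine in the pattern, Ikzf3 gave 6 matches and Ikzf5 still gave 5.

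All 5 members were expressed, where 24.3% of all 55536 genes and 46.5% of 22028 protein-coding genes were. Helios (Ikzf2, ENSMUSG00000025997.13, chr1:69531214-69687245, minus strand) was the most abundant member on the TPM scale, with 462.41 TPM in library 1 and 465.16 TPM in library 2 (mean 464 ± 1.94). Ikaros (Ikzf1, ENSMUSG00000018654.17, chr11:11685003-11772926, plus strand) had 115.88 TPM in library 1 and 96.92 TPM in library 2 (106 ± 13.4). The lower Helios library thus lay about 4-fold above the higher Ikaros library.

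Eos (Ikzf4, ENSMUSG00000002578.17, chr10:128630843-128645991, minus strand) had 89.08 TPM in library 1 and 75.84 TPM in library 2 (82.5 ± 9.36). Aiolos (Ikzf3, ENSMUSG00000018168.8, chr11:98464902-98546031, minus strand) had 66.79 TPM in library 1 and 57.23 TPM in library 2 (62.0 ± 6.76). Pegasus (Ikzf5, ENSMUSG00000040167.16, chr7:131388652-131410521, minus strand) had 30.99 TPM in library 1 and 29.11 TPM in library 2 (30.1 ± 1.33). Its level was still above the median of expressed protein-coding genes, 18.5 TPM.

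The order from Ikzf2 through Ikzf1, Ikzf4 and Ikzf3 to Ikzf5 was the same in both libraries, and no neighbours in it overlapped. Ikzf2 stood 3.99-fold above Ikzf1 in library 1 and 4.80-fold in library 2. The steps from Ikzf1 to Ikzf4 (1.30-fold and 1.28-fold) and from Ikzf4 to Ikzf3 (1.33-fold in both) were small, and that from Ikzf3 to Ikzf5 was 2.16-fold and 1.97-fold. Ranked by mean TPM among all genes, the members took places 304, 1278, 1679, 2264 and 4136 in that order. Ikzf2 alone held 60.4% of the family's TPM in library 1 and 64.2% in library 2.

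**Figure D1:**
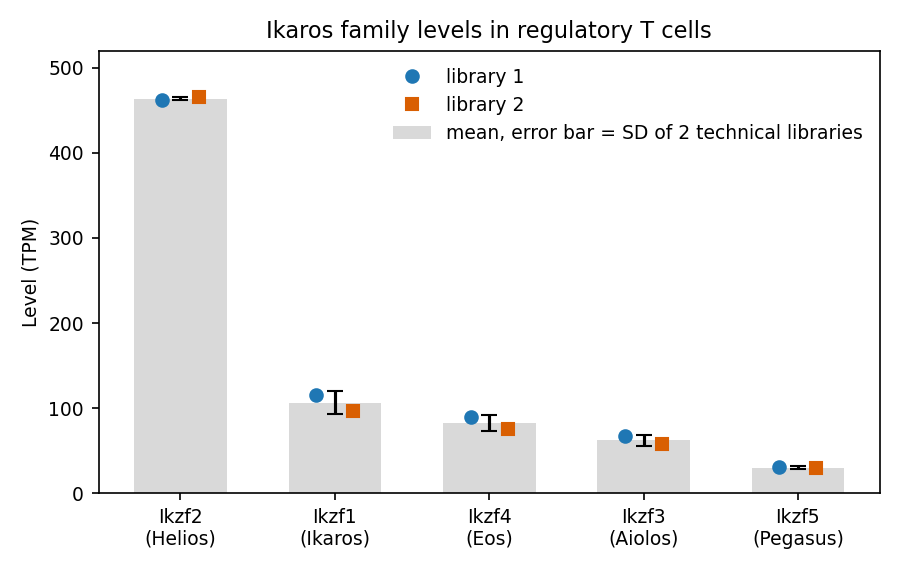
Level of each member in TPM (vertical axis), with library 1 as circles, library 2 as squares, the mean as a bar and the SD of the 2 technical libraries as the error bar. Ikzf2 stands at 462.41 and 465.16 TPM, and the other members all lie under 116 TPM.

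The Helios level rested on how its reads were divided between a long coding transcript and a short retained-intron transcript. Ikzf2-205 is 1905 bases long, is annotated as a retained intron and had 267.48 TPM in library 1 and 283.85 TPM in library 2, or 57.84% and 61.02% of the gene's TPM. Ikzf2-201, the coding transcript of 9278 bases that encodes all 6 fingers in 526 residues, was given 145.46 and 139.24 TPM, or 31.46% and 29.93%. By estimated count the order was turned round, since a long transcript yields more reads per molecule.

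Ikzf2-201 held 16691.82 counts in library 1 and 16754.74 in library 2, 69.7% and 68.0% of the gene's counts. Ikzf2-205 held 6172.77 and 6868.8 counts, 25.8% (95% Clopper-Pearson interval 25.2 to 26.3) and 27.9% (27.3 to 28.5). These intervals, like those that follow, cover counting error only, and not the error of dividing reads among transcripts. Ikzf2-203, the other transcript of this class and 2170 bases long, held 975.43 and 875.26 counts.

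Both retained-intron transcripts end within the intron that follows exon 3 of Ikzf2-201. This intron spans 105162 bases, and the last exon of Ikzf2-205 (chr1:69681559-69683314) runs 1651 bases into it. The junction is shown to mark where the read-through begins, beside the like junction of the Aiolos transcript Ikzf3-203, on the coding strand at chr1:69683180-69683239 (minus) and chr11:98516821-98516880 (minus). Capitals are the last bases of the exon and small letters the first bases of the intron.
Ikzf2-205 junction: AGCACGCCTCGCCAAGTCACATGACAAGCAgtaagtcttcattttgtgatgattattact
Ikzf3-203 junction: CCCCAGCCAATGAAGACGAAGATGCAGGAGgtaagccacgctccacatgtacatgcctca

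Both introns open with the letters gtaag, so that the sequence at the boundary is the usual start of an intron in each. The transcripts end upstream of every exon that encodes a zinc finger, and neither is annotated as coding. Together the retained-intron transcripts of Ikzf2 held 65.84% of the gene's TPM in library 1 and 67.82% in library 2, against a median of 14.5% and 14.3% over 6332 expressed protein-coding genes that have such a transcript. The Ikzf2 share was higher than that of 95.2% and 95.6% of these genes. By count, it was 29.83% and 31.44%, higher than in 82.98% and 84.18% of them.

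The 2 retained-intron transcripts could be told from the coding ones, but less well from each other. Of 50-base windows, the length of a read, 2061 occurred in Ikzf2-203 or Ikzf2-205 and in no other Ikzf2 transcript, and 6823 in Ikzf2-201 alone. Ikzf2-203 had 363 windows of its own and Ikzf2-205 had 46. The same intron also holds Gm28112 and Gm29112, separate genes annotated as intronic on the same strand. Counts of Gm28112 were 1107 in library 1 and 984 in library 2 (48.76 and 41.33 TPM), and Gm29112 had 190 and 139 counts. Whether signal in this intron came from unspliced precursor RNA or from transcripts that end there was not tested.

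**Figure D2:**
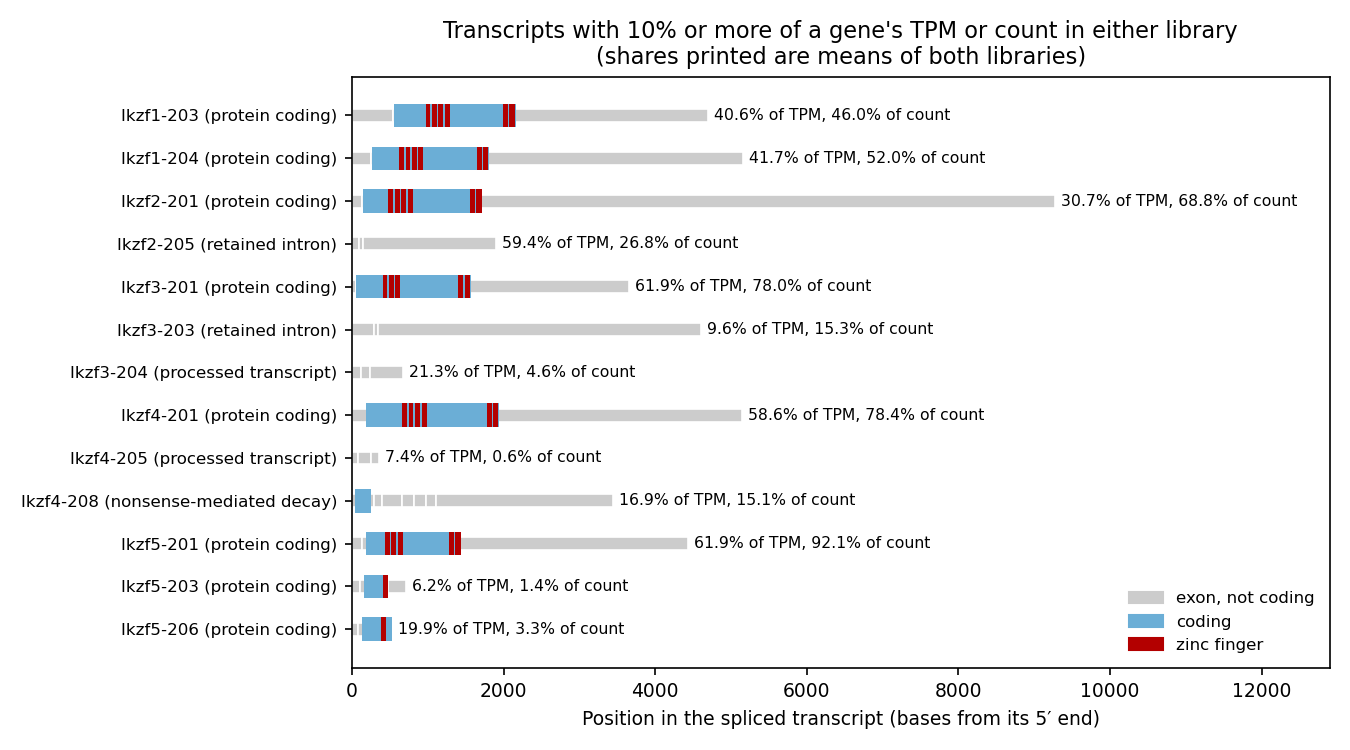
The 13 transcripts with 10% or more of a member's TPM or count in either library, drawn to scale along the spliced transcript (horizontal axis, bases), with coding sequence in blue, zinc fingers in red and non-coding exon sequence in grey. Ikzf2-205 carries no coding sequence and a mean of 59.4% of the gene's TPM, and the much longer Ikzf2-201 carries 30.7% of TPM and 68.8% of the count.

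Ikaros was divided almost evenly between 2 coding transcripts that both encode all 6 fingers. Ikzf1-203, which encodes 535 residues, had 42.48% of the gene's TPM in library 1 and 38.70% in library 2. Ikzf1-204, which encodes 515 residues, had 40.72% and 42.65%. The leading transcript therefore differed between the libraries by TPM, while by count Ikzf1-204 led in both, with 3000.77 and 2755.95 counts, against 2845.12 and 2272.82 for Ikzf1-203.

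Ikzf1-203 has an exon of 60 bases upstream of the finger exons that Ikzf1-204 skips, and its protein is 20 residues longer. The exon is shown because it is the coding difference between the leading forms of Ikaros, at chr11:11740950-11741009 (plus strand), with no bases in capitals.
Ikzf1-203 extra exon: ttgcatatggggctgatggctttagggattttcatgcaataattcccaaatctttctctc

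These transcripts also differ in their ends, and 397 windows were private to Ikzf1-203 and 863 to Ikzf1-204. The remaining Ikaros transcripts held few reads. Ikzf1-202, a coding form of 198 residues with fingers 2, 3 and 4 but neither finger of the pairing cluster, had 56.23 counts in library 1 and 86.59 in library 2, or 4.53% and 7.95% of the gene's TPM. It was singled out after its values were seen. Ikzf1-201, which lacks finger 1, was at 0 counts in both libraries, but has no 50-base window of its own.

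Eos was led by its full-length coding transcript, with a sizeable second form annotated as a target of nonsense-mediated decay, the pathway that destroys mRNAs with an early stop codon. Ikzf4-201, which encodes 586 residues and all 6 fingers, held 3154.28 counts in library 1 and 3094.44 in library 2, and 55.83% and 61.35% of the gene's TPM. Ikzf4-208 held 747.88 and 465.82 counts, 18.1% and 12.1% of the count, and 19.86% and 13.85% of TPM. The 95% Clopper-Pearson intervals of its count share, 17.0 to 19.3 in library 1 and 11.1 to 13.2 in library 2, did not overlap. They treat each estimated count as a read seen directly, although only 118 of 3400 windows of Ikzf4-208 are its own. Such intervals are too narrow to show that the technical libraries differed by more than counting error. The deposited TPM bounds of Ikzf4-208, 12.27 to 19.34 in library 1 and 5.14 to 12.10 in library 2, only just separated.

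Ikzf4-208 includes an exon of 72 bases that Ikzf4-201 skips, and its reading frame stops inside it after 71 residues, before the first finger. The start of the exon is shown, at chr10:128643711-128643765 (minus strand), with the stop codon in capitals.
Ikzf4-208 extra exon: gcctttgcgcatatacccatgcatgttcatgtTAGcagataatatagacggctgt

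In all, transcripts of this decay class held 26.71% of Ikzf4 TPM in library 1 and 16.63% in library 2, against medians of 5.83% and 5.66% over 3144 expressed protein-coding genes with such a transcript. That was higher than in 80.5% and 70.0% of them. Ikzf4-208 had 118 windows of its own. Ikzf4-205, a processed transcript of 363 bases, had 10.34% of TPM in library 1 and 4.39% in library 2 from 35.96 and 13.63 counts, and it has no window of its own.

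Aiolos had 1 coding transcript, and it led in both libraries. Ikzf3-201, of 507 residues, held 58.87% of the gene's TPM in library 1 and 64.90% in library 2, and 76.6% and 79.5% of its count. The retained-intron transcript Ikzf3-203 continues from exon 3 for 4163 bases into an intron of 26261 bases, as the junction shown above marks. It held 361.52 and 325.9 counts, 15.7% and 14.8% of the gene's, and 9.55% and 9.58% of TPM, and 4394 windows belonged to it alone.

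The Aiolos share of retained-intron TPM was higher than in 38.5% of the 6332 genes in library 1 and 39.2% in library 2, and so below their median. By count it was above the median, at 15.69% and 14.82% against 8.52% and 8.64%, and higher than in 66.7% and 65.5% of the genes. Ikzf3-204, a processed transcript of 670 bases with no annotated coding sequence, held 22.13% and 20.55% of TPM but only 114.14 and 95.2 counts.

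Pegasus counts came almost wholly from 1 coding transcript, while its TPM did not. Ikzf5-201, of 419 residues and 5 fingers, held 1101.88 counts in library 1 and 974.35 in library 2, 92.1% and 92.0% of the gene's. Its share of TPM was 65.28% and 58.59%. Ikzf5-206, an incomplete annotated transcript of 526 bases with finger 1 only, had 11.61% of TPM in library 1 and 28.20% in library 2, from 21.35 and 51.06 counts. That gap of 16.59 points was the largest among the 34 transcripts, whose median gap was 2.31 points. Ikzf5-203, of 714 bases, had 10.11% and 2.37% of TPM, from 25.91 and 5.98 counts.

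By windows read on the coding strand, Pegasus was also the member most exposed to shared reads. Of its transcript windows, 19.7% also occur in Gm10356, a processed pseudogene, which was at 0 counts in both libraries. Gm44625 lies within the Ikzf5 span on the same strand, with 25 counts in library 1 and 40 in library 2. The 3′ part of the Ikzf5 span, in which its fingers are encoded, overlaps the span of Pstk on the opposite strand. Pstk had 28.32 TPM in library 1 and 29.70 TPM in library 2. Whether exons of Ikzf5 and Pstk share bases was not tested. Whether counting used strand is not given in the sources used here, and reads from any shared bases cannot be told apart without it. Ikzf1, Ikzf2 and Ikzf3 shared no window with another gene on the coding strand, and Ikzf4 shared 0.225%. Windows of opposite strands were not compared. The span of Ikzf2 overlaps that of Gm29114 on the opposite strand, which had 67.9 counts in library 1 and 81.66 in library 2. That of Ikzf1 overlaps Gm12000 on the opposite strand, with 94 and 44 counts.

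Helios was the 1 member of 5 whose leading transcript by TPM was not protein coding in both libraries, where 13.8% of 9458 expressed protein-coding genes with 2 or more transcripts had such a leader. By count, 0 of 5 members had one, where 8.54% of those genes did. Of the 34 member transcripts, 23 are annotated as protein coding, 5 as processed transcripts, 4 as retained introns and 2 as nonsense-mediated decay. Besides Ikzf1-201, 1 further transcript was at 0 counts in both libraries, and 6 were at 0 in 1 library only. For reads counted directly, 0 still allows a level of up to 3 counts. These values are estimates that divide shared reads, so that limit need not hold for them. The deposited upper bounds for Ikzf1-201 were 1.44 TPM in library 1 and 0.96 TPM in library 2. For Ikzf5-205, the other transcript at 0 in both, they were 2.19 and 3.28 TPM.

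Transcripts with the full set of fingers held most of the estimated count of every member, but not most of the TPM of Ikzf2. In Ikzf1 such transcripts held 98.2% of the count in library 1 (95% Clopper-Pearson interval 97.81 to 98.51) and 97.6% in library 2 (97.18 to 98.03). In Ikzf5 they held 92.1% and 92.0%, in Ikzf4 77.5% and 82.9%, in Ikzf3 76.6% and 79.5%, and in Ikzf2 69.7% and 68.1%. By TPM, the share in Ikzf2 was 31.52% and 29.98%. What was left in Ikzf2, Ikzf3 and Ikzf4 went mostly to transcripts that are not coding, rather than to coding forms with fewer fingers.

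Coding transcripts with fewer fingers held 4.60% and 7.97% of the count in Ikzf5, 2.59% and 3.77% in Ikzf4, 1.82% and 2.37% in Ikzf1, and 0.48% and 0.51% in Ikzf2. Ikzf3 has no such annotated transcript. Several are fragments whose coding sequence is annotated as incomplete, so a missing finger need not mean a shorter protein. Ikzf2-202, a complete form of 500 residues that lacks finger 1 only and was singled out after its values were seen, held 79.58 counts in library 1 and 78.61 in library 2. By TPM, which weights short transcripts more, the fewer-finger share was 16.8% and 18.7% in Ikzf1 and 30.5% and 41.4% in Ikzf5.

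**Figure D3:**
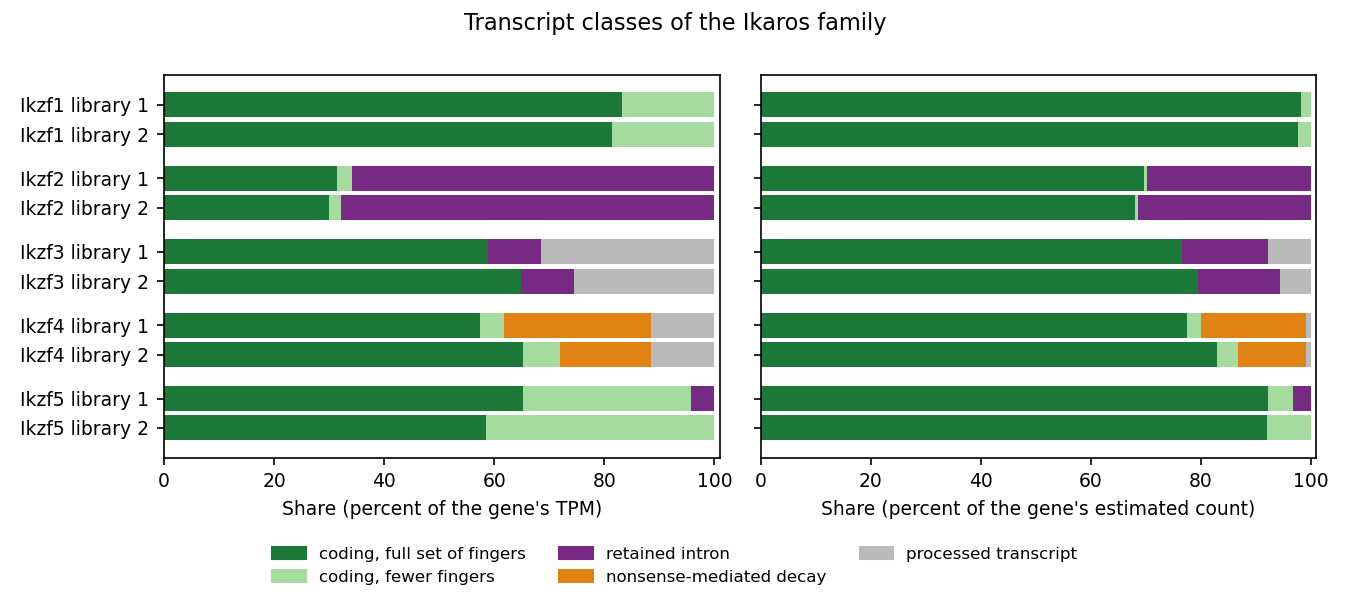
Share of each member's transcripts by class in each library, as percent of TPM in the left panel and percent of estimated count in the right panel. Retained-intron transcripts of Ikzf2 fill 65.84% and 67.82% of the left bars and 29.83% and 31.44% of the right ones.

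How far Helios exceeded Ikaros depended on the measure. The mean ratio of Ikzf2 to Ikzf1 was 4.39 by deposited TPM. It was 2.44 when all of each gene's estimated count was divided by the length of its leading coding transcript, and 1.45 when the TPM of coding transcripts alone was summed. On that last scale Ikzf2 had 157.95 TPM in library 1 and 149.66 TPM in library 2, still above Ikzf1 with 115.88 and 96.91 TPM.

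A separate, smaller table of whole-number counts, deposited with the GENCODE M4 annotation, gave another order. Counts of Ikzf2 there were 1227 in library 1 and 1193 in library 2, Ikzf1 had 1259 and 1103, and Ikzf4 had 1391 and 1313. Ikzf3 had 507 and 487, and Ikzf5 had 108 and 104. As counts per kilobase of coding sequence, scaled to the total of that table (CPM per kilobase), Ikzf4 averaged 207.1 ± 5.85, Ikzf2 206 ± 1.51 and Ikzf1 206 ± 16.6, so that these 3 members overlapped, with Ikzf3 at 88.0 ± 1.39 and Ikzf5 at 22.7 ± 0.32.

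Ikzf2 over Ikzf1 was thus 1.01 on average in the smaller table, below 1 in library 1 and above 1 in library 2. That Ikzf2 led the family was therefore seen in the estimated tables alone, whereas Ikzf3 followed by Ikzf5 at the foot of the order held under every measure computed. The whole-number count of Ikzf2 was 5.12% of its estimated count in library 1 and 4.84% in library 2, against a median of 39.5% and 38.6% over 7669 and 7699 genes. The figure was 9.03% and 9.82% for Ikzf5, 21.1% and 21.4% for Ikzf1, 22.0% and 22.1% for Ikzf3, and 33.7% and 34.1% for Ikzf4.

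The smaller table tended to hold less of genes with little coding sequence among their reads. Ikzf2 had 12.25% of its estimated count on coding bases of its transcripts in library 1 and 12.01% in library 2, the lowest of the members, whose other values ran from 28.58% to 33.30%. Set against the estimate for coding bases only, the whole-number count came to 41.8% and 40.3% in Ikzf2 and 31.6% and 31.9% in Ikzf5. It came to 65.3% and 66.0% in Ikzf1, 69.1% and 67.0% in Ikzf3 and 111% and 102% in Ikzf4. Across genes, which are not independent replicates, the share kept in the smaller table and the coding share had a Spearman correlation of 0.567 in library 1 and 0.555 in library 2. The counting method of that table is not given in the sources used here, and the cause of the gap was not tested.

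**Figure D4:**
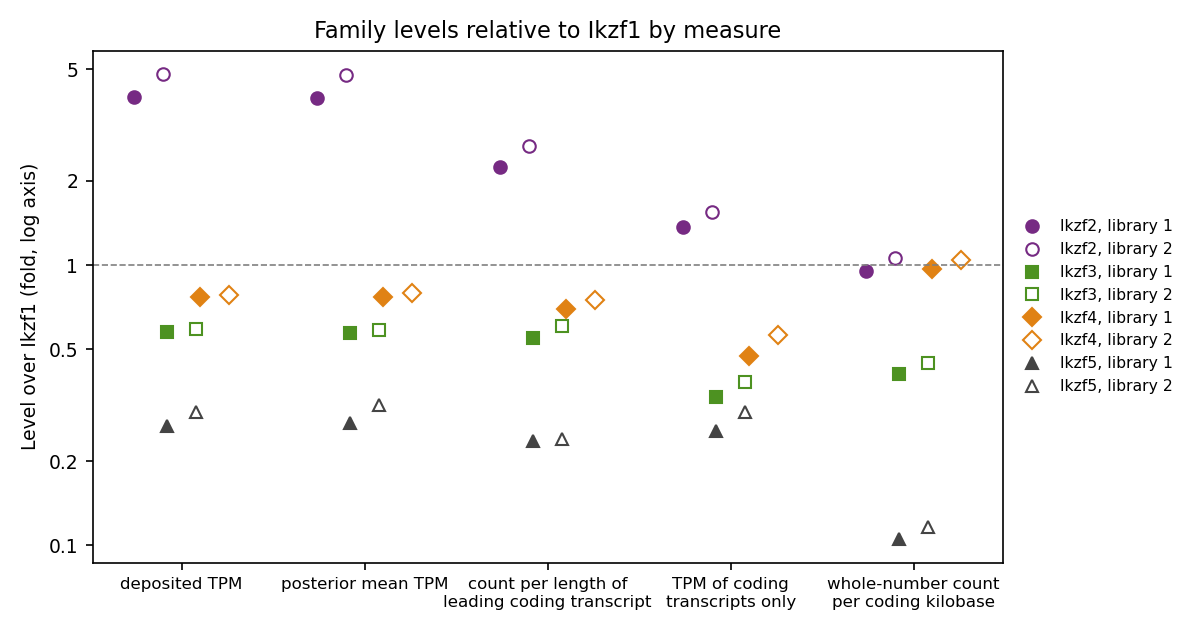
Level of Ikzf2, Ikzf3, Ikzf4 and Ikzf5 over that of Ikzf1 (vertical log axis, fold) under 5 measures, with library 1 as filled and library 2 as open symbols and a dashed line at equality. Ikzf2 has a mean of 1.01 at the right, where Ikzf4 also averages 1.01, against 4.39 for Ikzf2 at the left.

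Of the 5 members, 0 passed a 1.5-fold difference between the technical libraries in either direction. Among all genes, 21.9% of the 17458 whose counts summed to at least 10 did, and 0.38% of the 5523 whose counts summed to at least 1000. All members belong to the deeper class, so 0 of 5 is near its share and says little about the members. The log2 ratio of library 1 over library 2, after TMM scaling of the counts, was 0.24 for Ikzf1 (95% exact interval 0.18 to 0.29), 0.20 for Ikzf5 (0.08 to 0.33), 0.13 for Ikzf4 (0.06 to 0.19) and 0.10 for Ikzf3 (0.01 to 0.18). For Ikzf2 it was −0.01 (−0.04 to 0.01). The interval held 0 for Ikzf2 alone. The median size of the ratio was 0.22 over all genes compared and 0.10 over the deeper class, and the ratios of Ikzf1, Ikzf5 and Ikzf4 lay above the latter. In Ikzf1 the counts were 5954 in library 1 and 5151 in library 2, and in Ikzf2 they were 23965.1 and 24633.34.

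Every listed gene of the complexes that the family is known to recruit was expressed, where 46.5% of protein-coding genes and 24.3% of all genes were. All 13 genes of the NuRD complex, which remodels nucleosomes and removes histone acetyl groups, were expressed, at a median level of 44.6 TPM. The histone chaperone gene Rbbp4 was highest at 243 ± 12.3 TPM, followed by the deacetylase gene Hdac1 at 214 ± 18.2 TPM, and Mta1 was lowest at 10.2 ± 1.37 TPM. The remodelling ATPase gene Chd4 was at 44.6 ± 1.39 TPM. All 5 genes of the CtBP, Sin3 and CoREST corepressors were expressed with a median of 20.6 TPM, Sin3b being highest at 60.6 ± 6.53 TPM and Ctbp2 lowest at 5.04 ± 1.06 TPM. All 5 core genes of the SWI/SNF remodeller were expressed, with a median of 38.4 TPM, from Smarcb1 at 75.7 ± 3.55 TPM to Smarcc1 at 19.4 ± 2.84 TPM. The median was 0.025 TPM over all genes, 0.625 TPM over protein-coding genes and 18.5 TPM over expressed protein-coding genes.

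Genes of the cereblon ligase, and of enzymes that change the phosphate on Ikaros, could also be detected above the 1 TPM limit. The grasp of Ikaros and Aiolos by cereblon, given above, is known from human cells with a thalidomide analog present. The labels here name no such drug. Whether the ligase acts on any member in these mouse cells was not tested. All 5 genes of the cereblon ubiquitin ligase had a median of 83.9 TPM, with Rbx1, its RING subunit, at 273 ± 3.85 TPM, the substrate receptor gene Crbn at 143 ± 0.23 TPM and Cul4a lowest at 12.7 ± 3.63 TPM. All 6 genes of casein kinase 2 and protein phosphatase 1, which add phosphate to Ikaros and take it off, had a median of 84.0 TPM, from Ppp1ca at 627 ± 8.90 TPM to Csnk2a2 at 11.5 ± 0.53 TPM.

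Among 10 transcription factors of regulatory T cells, all expressed with a median of 35.2 TPM, Ets1 was highest at 624 ± 41.3 TPM and Bach2 lowest at 17.4 ± 0.16 TPM. On the deposited TPM scale Ikzf2 lay below Ets1 and above the other 9. Of 6 genes that the family is known to restrain in lymphocytes, 1 was expressed and the median was 0.55 TPM, against 46.5% expressed and a median of 0.625 TPM over all protein-coding genes. This was Dtx1, a regulator of Notch signalling, at 31.9 ± 5.05 TPM, while Il2 was at 0.67 ± 0.11 TPM and Hes1 lowest at 0.08 ± 0.11 TPM. With no sample that lacks a member of the family, these levels could not be related to it.

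**Figure D5:**
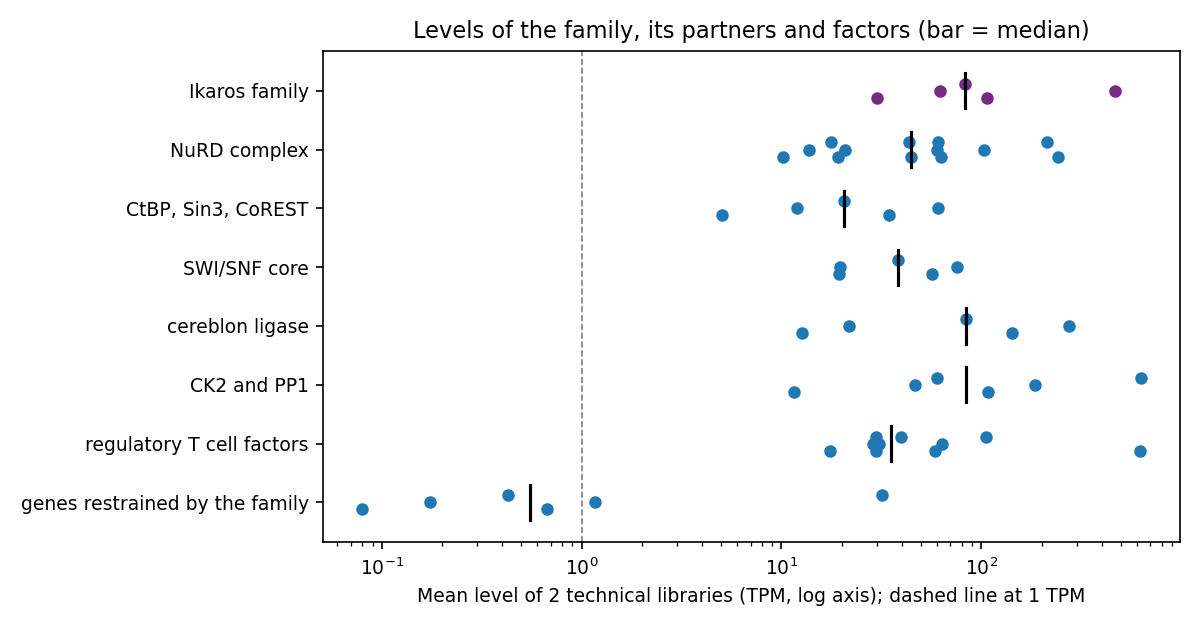
Mean level of each gene (horizontal log axis, TPM) for the Ikaros family in purple and for 7 lists of partners, factors and restrained genes in blue, with black bars at the medians and a dashed line at 1 TPM. Lists of partner complexes lie wholly above the line, and 4 of 6 restrained genes lie below it.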

How the data were processed

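PolyA plus RNA-seq was measured in 2 technical libraries of 1 mouse. Per the file headers, the deposited larger tables hold RSEM-type columns on GENCODE M21 and mm10: estimated counts with no scaling, TPM scaled by the authors over all features, and for each transcript its percent of the gene's TPM. The aligner is not given in the sources used here. The smaller deposited table holds whole-number counts per gene, with GENCODE M4 named in the deposited readme. No column belonged to another sample. Gene and transcript names were joined by identifier for 55536 genes and 141862 transcripts, and 26345 other features were not used.

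Expressed means a level of at least 1 TPM in each library. The ratio of libraries used estimated counts rounded to whole numbers, TMM scaling (edgeR 4.0.16), a prior count of 0.5 and exact 95% intervals, for genes whose counts summed to at least 10. DESeq2 1.42.0 size factors were an alternative. One group gives no test between conditions. Zinc fingers were sought in the translated coding sequences of GENCODE M21 as C-x2-C-x12-H-x3to5-H, in place of the RefSeq proteins first planned. The comparison of the tables used genes with 200 or more estimated counts. Other work used Python 3.11.15.

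Named transcripts are those with 10% or more of a gene's TPM or count in either library, and named list genes are the 1 or 2 highest and the lowest, and any other was added for its role after its values were seen. Members, lists and rules were chosen with earlier results of these data known.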

Additional observations from a re-analysis of the deposited data

How the results depend on the processing

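The order of Ikzf2, Ikzf1 and Ikzf4 depended on the measure, and the cause was not tested. Values from the posterior mean TPM were 414 TPM for Ikzf2 and 28.2 TPM for Ikzf5. Coding transcripts alone gave 154 TPM for Ikzf2, 38.2 for Ikzf3 and 54.8 for Ikzf4. Dividing all counts by the length of the leading coding transcript, which was chosen after seeing the data, gave 207 TPM for Ikzf2, 85.4 for Ikzf1, 61.5 for Ikzf4, 49.0 for Ikzf3 and 20.2 for Ikzf5. Ratios to Ikzf1 were also chosen after seeing the data. With coding transcripts they were 1.45 for Ikzf2, 0.361 for Ikzf3 and 0.519 for Ikzf4. With the leading coding length they were 2.44 for Ikzf2, 0.722 for Ikzf4 and 0.237 for Ikzf5. In the smaller table they were 1.01 for Ikzf2, 0.429 for Ikzf3 and 0.111 for Ikzf5. The mean for Ikzf4 was reversed there to 1.01, against 0.776 by deposited TPM. Its libraries lay on both sides of 1, at 0.971 in library 1 and 1.046 in library 2, so no reversed order was settled. By count instead of TPM, the leading shares became 52.0% for Ikzf1-204, 26.8% for Ikzf2-205, 78.0% for Ikzf3-201, 78.4% for Ikzf4-201 and 92.1% for Ikzf5-201, and 0 members were led by a non-coding transcript. Shares with the full set of fingers by TPM were 82.3% in Ikzf1, 30.8% in Ikzf2, 61.9% in Ikzf3, 61.3% in Ikzf4 and 61.9% in Ikzf5. The genes past 1.5-fold between libraries numbered 13688 with a summed count of 1 or more and 1141 with 50 or more. With 10 or more they numbered 3826, or 21.9% of 17458 genes. These sets differ in size and the shares of the others were not computed, so the counts do not show how the share changed. The smaller table moved the log2 ratio of libraries to 0.18 for Ikzf1, 0.03 for Ikzf2 and 0.04 for Ikzf5. Either library alone gave the single-library values above in the report, with 5 members expressed and 1 led by a non-coding transcript. Limits of 0.5, 5 and 10 TPM also left 5 members expressed. No paired analysis was possible because all samples belong to 1 group. Depth limits the shares of transcripts with few counts.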
